A study of Homo sapiens with 12 samples.

Results

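Palbociclib was compared with its solvent, DMSO, across the genes of the libraries labelled C4-2, with most room given to genes outside the cell-cycle, interferon and amino-acid stress programmes. The comparison used 5 of the 12 libraries in the series, 3 with palbociclib and 2 with DMSO, and the members were the 11943 of 61860 listed genes that passed a low-count filter. The series holds RNA sequencing of 2 human prostate cancer lines, C4-2 and DU145, each treated with palbociclib or DMSO, with 3 labelled libraries in each of 4 groups. C4-2 is an LNCaP derivative that grows without androgen, and DU145 is a line established from a brain metastasis. All groups shared RPMI-1640 medium and fetal bovine serum, and the labels name no engineered allele or construct for any group. The sources used here give neither dose nor duration of the drug. The column of C4-2 DMSO replicate 3 held a 0 for each gene and was left out. No label says that a group's libraries were separate cultures, and the p-values then cover only the spread among these libraries, which could be technical.

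Palbociclib blocks CDK4 and CDK6, kinases that phosphorylate RB1 and let E2F factors start the genes of DNA replication. A cell held in G1 in this way stops dividing but may go on growing, and its cytoskeleton, surface and secretory pathway can change as it does. Long non-coding RNAs, transcripts without a known protein product, are known for low levels and for differing widely between cell types and states.

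The libraries labelled C4-2 held 2608851 to 3489659 counts each, so that a count of 0 allowed up to 0.86 to 1.15 CPM (counts scaled to the library's total, taking 3 counts as the limit and covering counting error only). Libraries of a group differed little more than counting noise, with a chi-square of 1.14 to 1.18 per degree of freedom within groups and 14.94 to 17.34 between them. The luminal prostate genes KLK3, KLK2, KLK4, ACP3 and FOLH1, which define the lineage of C4-2, were at 0 counts in all 5 libraries. The mesenchymal genes FN1 and VIM were at 18760 to 20930 and 1290 to 1807 CPM. The libraries are therefore called by their label only. Leukocyte and endothelial genes were low, with summed levels of 8 leukocyte genes at 1.38 to 3.07 CPM with palbociclib and 2.29 to 2.65 CPM with DMSO, and of 7 endothelial genes at 3.26 to 4.22 and 3.98 to 6.02 CPM. The summed level of 9 fibroblast genes was 175 to 220.4 CPM with palbociclib and 264 to 293 CPM with DMSO, most of it COL1A1, at 161 to 277 CPM over the 5 libraries. That of 7 neuroendocrine genes was 92.8 to 115 CPM and 110 to 117 CPM, most of it NCAM1 and ENO2, and CHGA, CHGB and INSM1 were at 0 counts.

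Of the 11943 genes, 6184 (51.8%) passed edgeR's quasi-likelihood test at an adjusted p of 0.05, 3011 higher (25.2%) and 3173 lower (26.6%) with palbociclib. Changes of 2-fold or more were called for 614 genes upward (5.14%) and 547 downward (4.58%). The 2 groups did not overlap for 7898 genes (66.1%). The median log2 fold change was 0.002, and the central range from the 5th to the 95th percentile ran from -0.957 to 1.03. The set-aside programmes held 529 of the tested genes, and the other 11414 genes gave 2850 rises and 2875 falls, of which 545 and 360 were 2-fold or more. DESeq2 called 3793 genes on the same counts, 1800 higher and 1993 lower. When libraries were scaled by their totals alone, 3344 genes were higher and 2787 lower, so that 54.5% in place of 48.7% of the calls were rises. In bulk RNA, fewer cells of a type and less RNA per cell cannot be told apart.

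The sequences just before the start of 4 strongly changed genes are printed to show how much such regions differ. Whether they had a part in the changes was not tested. Each is the 250 bases before the first listed RefSeq start (GRCh38.p14), and the capitals mark matches, on either strand, to the motifs searched.
CLDN2 promoter, chrX:106899914-106900163, plus strand: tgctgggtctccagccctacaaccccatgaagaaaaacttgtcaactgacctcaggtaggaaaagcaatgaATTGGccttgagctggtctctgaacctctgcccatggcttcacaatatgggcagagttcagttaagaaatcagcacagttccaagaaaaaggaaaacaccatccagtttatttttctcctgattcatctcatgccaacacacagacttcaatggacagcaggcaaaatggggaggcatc
HAS3 promoter, chr16:69107290-69107539, plus strand: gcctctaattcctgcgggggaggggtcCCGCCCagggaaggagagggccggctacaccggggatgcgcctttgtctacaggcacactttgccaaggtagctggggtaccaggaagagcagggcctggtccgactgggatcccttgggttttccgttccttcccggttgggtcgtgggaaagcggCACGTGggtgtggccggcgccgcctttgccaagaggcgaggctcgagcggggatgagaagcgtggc
NHSL1-AS1 promoter, chr6:138691418-138691667, plus strand: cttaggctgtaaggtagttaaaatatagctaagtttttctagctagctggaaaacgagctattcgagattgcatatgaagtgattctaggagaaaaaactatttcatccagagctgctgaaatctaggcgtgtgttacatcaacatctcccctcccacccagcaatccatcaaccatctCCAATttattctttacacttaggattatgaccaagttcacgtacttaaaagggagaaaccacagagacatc
ZNF367 promoter, chr9:96418371-96418620, minus strand: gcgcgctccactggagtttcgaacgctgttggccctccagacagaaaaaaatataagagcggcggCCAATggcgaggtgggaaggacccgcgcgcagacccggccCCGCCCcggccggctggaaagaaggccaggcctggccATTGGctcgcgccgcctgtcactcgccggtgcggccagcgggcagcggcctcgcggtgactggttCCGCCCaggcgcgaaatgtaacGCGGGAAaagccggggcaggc
CLDN2 and NHSL1-AS1 hold 1 CCAAT box each and no GC box, HAS3 holds 1 GC box and 1 E-box, and ZNF367, a gene of the cell-cycle list, holds 2 CCAAT boxes, 2 GC boxes and 1 E2F-type site. The whole genes lie at chrX:106900164-106930861 (plus strand) for CLDN2, chr16:69105564-69118719 (plus strand) for HAS3, chr6:138692548-138697288 (plus strand) for NHSL1-AS1 and chr9:96385941-96418329 (minus strand) for ZNF367 in hg38. For HAS3, NHSL1-AS1 and ZNF367 the RefSeq start and the start in the deposited annotation differ, so the window printed is that of the RefSeq start.

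CLDN2 and HAS3 showed the largest falls among called genes with a mean of at least 5 CPM, no overlap between groups and no place in the set-aside programmes. The lists behind those programmes need not be complete, so genes such as UNG and STMN1 below may still be tied to the cell cycle. No overlap was a condition for choosing the largest changes named here and below. Their separation between groups is therefore not a further result, and 66.1% of all tested genes had it. CLDN2 encodes a claudin that makes tight junctions permeable to cations and water, and its levels were 0.692, 0.383 and 1.48 CPM with palbociclib and 16 and 17.2 CPM with DMSO. The palbociclib values rest on 2, 1 and 5 counts, and the groups were far apart. The log2 fold change, here and below ± its standard error (SE), was -4.19 ± 0.36 (SE, adjusted p = 2.5e-13), and -4.87 without palbociclib replicate 3. HAS3 encodes one of the 3 hyaluronan synthases of the plasma membrane, and was at 12.5, 11.5 and 13 CPM with palbociclib and 119 and 121 CPM with DMSO. Every palbociclib library was far below either DMSO library, with little spread inside a group, and the log2 fold change was -3.32 ± 0.11 (SE, adjusted p = 1.12e-26).

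Other surface proteins fell as well. CDH6, a cadherin of cell-cell contacts, was at 61.9, 51.4 and 57.4 CPM with palbociclib and 244 and 242 CPM with DMSO. HAVCR1, a receptor for phosphatidylserine on dying cells, was at 46, 45.2 and 50 CPM with palbociclib and 204 and 208 CPM with DMSO. Both genes fell, with log2 fold changes of -2.14 ± 0.071 (SE, adjusted p = 3.16e-27) and -2.17 ± 0.075 (SE, adjusted p = 1.38e-26). TM4SF1, a membrane protein of the L6 family, was at 70.6, 72.1 and 75.8 CPM with palbociclib and 226 and 203 CPM with DMSO, a fall of the same kind with a log2 fold change of -1.6 ± 0.07 (SE, adjusted p = 6.69e-23).

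Secreted proteins fell and rose. THBS1, which encodes the matrix glycoprotein thrombospondin 1, was at 662, 656 and 611 CPM with palbociclib and 2116 and 2112 CPM with DMSO and fell with a log2 fold change of -1.77 ± 0.03 (SE, adjusted p = 1.63e-37). CCL2, a chemokine that draws monocytes, was at 1.38, 3.45 and 1.78 CPM with palbociclib and 10.3 and 11.3 CPM with DMSO, a low level in every library. BMP4, a ligand of the bone morphogenetic protein receptors, was at 3.11, 2.68 and 5.62 CPM with palbociclib and 18.1 and 13.6 CPM with DMSO. Both low-level genes fell, with log2 fold changes of -2.35 ± 0.34 and -2.05 ± 0.27. IL6, a cytokine, was at 194, 187 and 194 CPM with palbociclib and 43.8 and 48.1 CPM with DMSO, and all 3 palbociclib libraries were higher, with a log2 fold change of 2.02 ± 0.08 (SE, adjusted p = 1.68e-24). SPX, which encodes the peptide hormone spexin, was at 17.6, 16.9 and 19.5 CPM with palbociclib and 4.01 and 1.66 CPM with DMSO, and SMOC1, a calcium-binding matrix protein, was at 10.7, 9.2 and 7.7 CPM with palbociclib and 1.15 and 1.99 CPM with DMSO. Both rose from levels close to the limit of a few counts (log2 fold changes 2.57 ± 0.29 and 2.49 ± 0.4). Without DMSO replicate 1 the log2 fold change of SPX was 3.37.

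Inside the cell, the imprinted gene PEG10, which derives from a retrotransposon, was at 207, 202 and 199.5 CPM with palbociclib and 811 and 821 CPM with DMSO. It was lower in every palbociclib library, with a log2 fold change of -2.06 ± 0.041 (SE, adjusted p = 3.41e-35). UNG, the glycosylase that removes uracil from DNA, fell (log2 fold change -2.17 ± 0.15), as did the kinase gene RPS6KA5 (log2 fold change -2.11 ± 0.22). FRMD4B and RGS4, a regulator of G-protein signalling, had log2 fold changes of -2.36 ± 0.3 and -2.08 ± 0.35 at levels under 20 CPM.

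The abundant genes that rose most included NDRG1, a gene known to respond to low oxygen and to metal stress, at 816, 869 and 826 CPM with palbociclib and 204 and 218 CPM with DMSO. Its palbociclib libraries stood well above its DMSO libraries, with a log2 fold change of 1.94 ± 0.044 (SE, adjusted p = 3.31e-33). TNFRSF9, the receptor also called 4-1BB, was at 193, 202 and 186 CPM with palbociclib and 64.5 and 58 CPM with DMSO. RBCK1, a subunit of the linear ubiquitin chain assembly complex, was at 413, 419.7 and 399 CPM with palbociclib and 127 and 152 CPM with DMSO. Both genes rose, with log2 fold changes of 1.61 ± 0.076 and 1.52 ± 0.057. IRS2, an adaptor of the insulin receptor, rose (log2 fold change 1.47 ± 0.058), as did NABP1, a single-stranded DNA binding protein (log2 fold change 1.35 ± 0.075). The histone gene H2AC6 was at 12.1, 17.2 and 14.8 CPM with palbociclib and 2.01 and 2.65 CPM with DMSO, higher in each palbociclib library, with a log2 fold change of 2.6 ± 0.32. PPIL6, N4BP3 and PLEKHG1 rose (log2 fold changes 2.58 ± 0.44, 2.37 ± 0.23 and 2.23 ± 0.35). EEF1D, a subunit of translation elongation factor 1, was at 66.1, 22.2 and 14.8 CPM with palbociclib and 5.44 and 7.63 CPM with DMSO. Palbociclib replicate 1 was far above the other two, and the log2 fold change of 2.34 ± 0.38 was 1.44 without that library. ENSG00000272405, which had no symbol, rose (log2 fold change 2.4 ± 0.35).

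**Figure D1:**
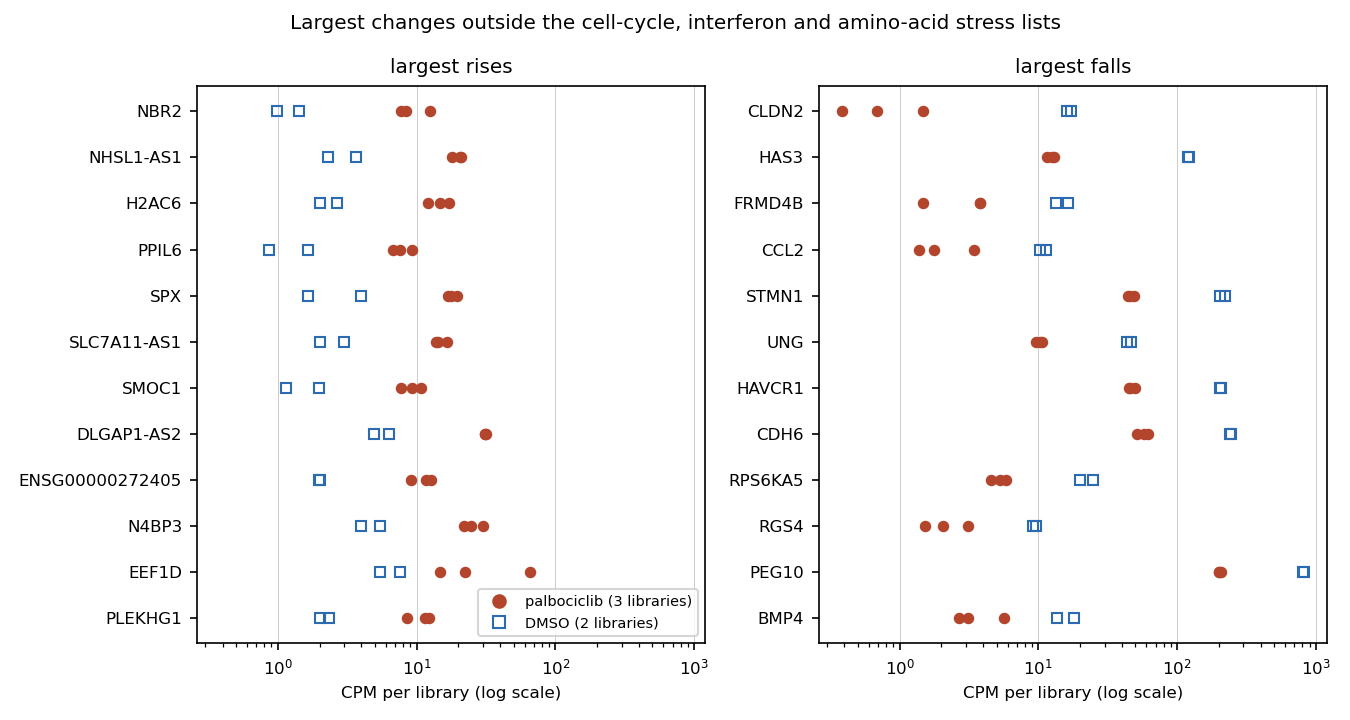
CPM in each library, on a log scale, for the 12 largest rises (left) and 12 largest falls (right) among called genes with a mean of at least 5 CPM outside the set-aside programmes. Filled circles are the 3 palbociclib libraries and open squares the 2 DMSO libraries. Within each gene the symbols of the 2 groups do not overlap, which was a condition for inclusion, and CLDN2 is farthest apart.

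Long non-coding genes leaned upward as a class. Of 510 tested, 225 were higher (44.1%) and 19 lower (3.73%), with a median log2 fold change of 0.665. Of 10948 protein-coding genes, 2690 were higher (24.6%) and 3087 lower (28.2%), with a median of -0.02. The lean was seen in antisense genes, with 95 higher and 4 lower of 205, in intergenic ones (lincRNA), with 86 and 10 of 195, and in the class of other processed transcripts, with 33 and 3 of 75. Processed pseudogenes, the intronless copies of messenger RNAs, did not share the lean, with 24 higher (10.9%) and 48 lower (21.8%) of 220. Both shares were below those of all tested genes, 25.2% higher and 26.6% lower. DESeq2 called 116 long non-coding genes higher and 6 lower.

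The lean was also described by level. Tested genes were divided into 5 equal groups by mean CPM, and the median log2 fold change of long non-coding genes was 0.68, 0.544, 0.403, 0.493 and 0.76 from the lowest group to the highest. Coding genes of the same groups had medians of 0.069, -0.022, -0.051, -0.037 and -0.006. In the highest group 9 of 10 long non-coding genes were higher, and in the lowest group 128 of 345 were higher and 10 lower. The upper 2 level groups hold 17 and 10 such genes only. A gene could pass the low-count filter through 1 treatment group alone, and its mean level took 3 palbociclib but only 2 DMSO libraries. Both can favour rises in the lowest group, where the median of all tested genes was 0.186. Their part in the lean was not tested.

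**Figure D2:**
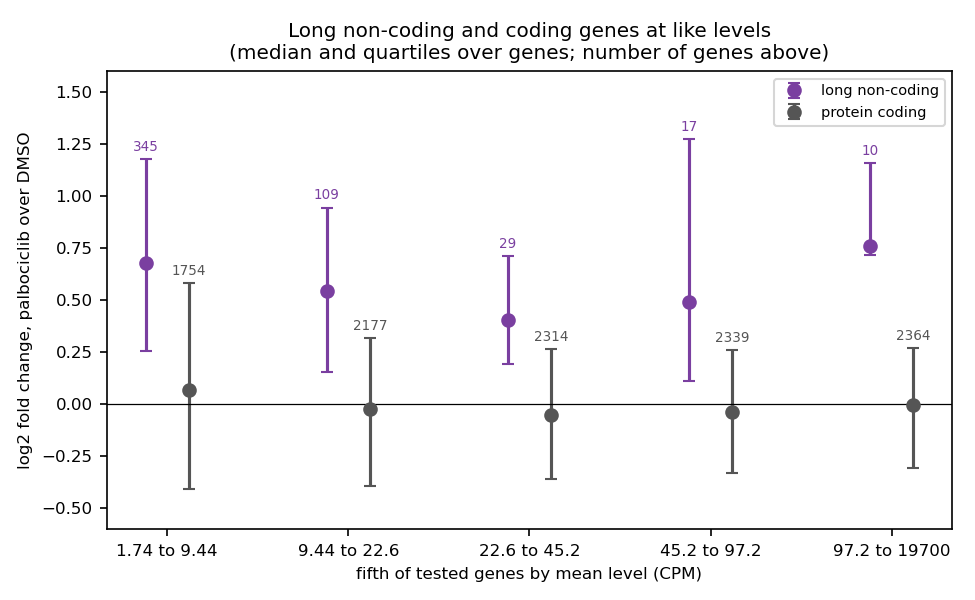
Log2 fold change of long non-coding (purple) and protein-coding (grey) genes in 5 equal groups of the tested genes by mean CPM. Points are medians over genes, bars reach from the lower to the upper quartile, and the number of genes stands above each bar. The long non-coding median lies between 0.403 and 0.76 in each group and the coding median between -0.051 and 0.069.

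The same lean was seen in the libraries as a whole. Long non-coding genes took 1.01% to 1.02% of the counts in the 3 palbociclib libraries and 0.656% and 0.669% in the DMSO libraries. At a common depth of 2608851 counts, 3133 to 3144 long non-coding genes were expected to be detected with palbociclib and 2638 and 2644 with DMSO. Over all genes, 19388 to 19522 were expected with palbociclib and 18358 and 18544 with DMSO. The 2 groups did not overlap in any of these 3 measures. Reads were counted without regard to strand, so reads of a non-coding gene and of a gene that overlaps it cannot be told apart. Of 271 long non-coding genes that overlapped no tested coding gene, 124 were higher and 13 lower. Of the 72 that overlapped a coding gene that rose, 35 were higher and 2 lower, and of the 53 that overlapped one that fell, 13 were higher and 1 lower.

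Among abundant members, NEAT1, the RNA scaffold of nuclear paraspeckles, at chr11:65422774-65445540 (plus strand), was at 380.3, 327 and 343 CPM with palbociclib and 121 and 120.4 CPM with DMSO. GABPB1-AS1, an antisense gene at chr15:50354959-50372202 (plus strand), was at 149, 146 and 151 CPM with palbociclib and 40.7 and 50.4 CPM with DMSO. Both were higher in every palbociclib library, with log2 fold changes of 1.49 ± 0.061 (SE, adjusted p = 6.94e-24) and 1.67 ± 0.087 (SE, adjusted p = 2.74e-20). DLGAP1-AS2 was at 31.8, 31 and 31.4 CPM with palbociclib and 6.3 and 4.97 CPM with DMSO, and NHSL1-AS1 at 20.8, 20.7 and 18.1 CPM with palbociclib and 2.29 and 3.65 CPM with DMSO. These low-level antisense genes rose as well (log2 fold changes 2.41 ± 0.2 and 2.69 ± 0.27). NBR2 was at 12.5, 8.43 and 7.7 CPM with palbociclib and 1.43 and 0.995 CPM with DMSO and had the largest rise under the same conditions as for CLDN2, a log2 fold change of 2.86 ± 0.43 (SE, adjusted p = 2.32e-07). SLC7A11-AS1 was at 13.8, 16.5 and 14.2 CPM with palbociclib and 2.01 and 2.98 CPM with DMSO, and its log2 fold change of 2.52 ± 0.31 was close to that of SLC7A11, 2.57 ± 0.041, whose reads it cannot be told from.

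Several other well-known long non-coding genes were looked up after their values had been seen. LINC00662 was at 91.3 ± 8.45 against 23.5 ± 0.0322 CPM (mean ± SD, palbociclib, n = 3, against DMSO, n = 2), LUCAT1 at 68.2 ± 0.419 against 22.6 ± 2.32 CPM and FTX, a gene of the X-inactivation centre, at 105 ± 1.15 against 40.2 ± 5.21 CPM. Their log2 fold changes were 1.9 ± 0.11, 1.56 ± 0.12 and 1.33 ± 0.095. NORAD, an RNA that binds the PUMILIO proteins, rose (log2 fold change 0.8 ± 0.061), as did OIP5-AS1 (log2 fold change 0.75 ± 0.08) and KCNQ1OT1, of the imprinted KCNQ1 region (log2 fold change 0.92 ± 0.15). TUG1 did not pass, with 180.5 ± 15.9 against 160.1 ± 3.72 CPM. Among the 19 that fell, MANCR was at 4 ± 0.811 against 16.2 ± 1.89 CPM with a log2 fold change of -2.03 ± 0.26, DLEU2 had one of -1.62 ± 0.33 and SNHG1 one of -0.44 ± 0.088. Hosts of small nucleolar RNAs, whose introns carry guides for RNA modification, were split, with 7 higher and 3 lower of 22. GAS5 was at 158 ± 8.88 against 93.2 ± 7.43 CPM and SNHG29 at 147 ± 5.51 against 86.4 ± 3.03 CPM, log2 fold changes of 0.72 ± 0.073 and 0.72 ± 0.073, and ZFAS1 and TAF1D rose (log2 fold changes 0.95 ± 0.17 and 0.43 ± 0.086).

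Over all tested genes 25.2% were higher and 26.6% lower, and the counts of each list below stand beside those shares. The cytoskeleton leaned downward. In the list of actin and contractile genes, 51 of 71 tested members were lower and 8 higher, with a median log2 fold change of -0.335. ACTB, the cytoplasmic actin, was at 3179.6, 3155 and 3179.6 CPM with palbociclib and 6283 and 6194 CPM with DMSO, and ACTG1, its near twin, at 2151, 2112 and 2226 CPM with palbociclib and 4432 and 4493 CPM with DMSO. Both stood at about a 2-fold lower level in each palbociclib library, with log2 fold changes of -1.02 ± 0.021 (SE, adjusted p = 1.85e-34) and -1.09 ± 0.024 (SE, adjusted p = 6.35e-34), and reads shared with their pseudogenes make the exact sizes uncertain. ACTA2, smooth-muscle actin, was at 18.8 ± 1.95 against 74.5 ± 0.364 CPM, with a log2 fold change of -2.05 ± 0.12. The calponin CNN2 and ezrin (EZR), which links actin to the membrane, fell (log2 fold changes -1.01 ± 0.05 and -0.85 ± 0.044). CFL2, a cofilin that severs actin filaments, and the GTPase RHOB were among the 8 that rose (log2 fold changes 0.39 ± 0.049 and 0.34 ± 0.063).

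Microtubule genes gave 11 lower and 1 higher of 20, with a median of -0.459. STMN1, which encodes the microtubule destabiliser stathmin, was at 44, 48.7 and 45.6 CPM with palbociclib and 204 and 222 CPM with DMSO. The groups differed by more than 4-fold, with a log2 fold change of -2.25 ± 0.076 (SE, adjusted p = 7.13e-27). TUBB4B, TUBA1B and TUBA1C, tubulins with many near-identical copies, fell (log2 fold changes -1.16 ± 0.037, -1.05 ± 0.032 and -0.79 ± 0.036). The 1 member that rose was TUBE1, epsilon tubulin, at 29 ± 0.5 against 13.6 ± 0.964 CPM, with a log2 fold change of 1.05 ± 0.16.

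Intermediate filaments gave 11 lower and 2 higher of 15, with a median of -0.569. KRT8 was at 359.9, 366 and 349.9 CPM with palbociclib and 865 and 887 CPM with DMSO, and KRT18, its partner in simple epithelia, at 70.3, 74.7 and 56.5 CPM with palbociclib and 178 and 165 CPM with DMSO. Both keratins were lower in every palbociclib library, with log2 fold changes of -1.34 ± 0.037 (SE, adjusted p = 2.89e-30) and -1.42 ± 0.08 (SE, adjusted p = 4.62e-19). KRT8 and KRT18 overlap on opposite strands, and counting without strand cannot tell reads of the shared part apart. KRT19 fell (log2 fold change -1.56 ± 0.086). The lamins LMNB1, LMNB2 and LMNA, which line the nuclear envelope, fell (log2 fold changes -2.24 ± 0.074, -1.37 ± 0.048 and -0.74 ± 0.044). LMNB1 is also a member of the cell-cycle list. NEFM, a neurofilament gene, and KRT10 rose (log2 fold changes 1.27 ± 0.3 and 0.41 ± 0.14). The sum of 8 epithelial genes was at 67.2 to 68.9 CPM with palbociclib and 141 to 165 CPM with DMSO. Most of it was KRT19, at 54.7, 50.6 and 44.7 CPM with palbociclib and 150 and 132 CPM with DMSO. EPCAM and CDH1 were at 0.332 to 2.3 and 0.287 to 0.767 CPM, so this sum shows no fall of epithelial genes beyond KRT19. The sum of 15 luminal genes, mostly KRT8 and KRT18, was at 468 to 498 and 1102 to 1110 CPM. Their part in these results was not tested.

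Genes of transport into and out of the nucleus leaned downward too. Of 58 nuclear pore and transport genes, 41 were lower and 5 higher, with a median of -0.462. KPNA2, an importin alpha that carries cargo with a nuclear signal, was at 206, 197 and 218 CPM with palbociclib and 522 and 521 CPM with DMSO, and RANBP1, a cofactor of the Ran GTPase, at 78.6, 78.6 and 69.6 CPM with palbociclib and 181 and 182 CPM with DMSO. The palbociclib libraries were lower, with log2 fold changes of -1.37 ± 0.046 (SE, adjusted p = 3.45e-27) and -1.32 ± 0.071 (SE, adjusted p = 8.72e-20). KPNB1 and the exportin CSE1L fell (log2 fold changes -0.71 ± 0.036 and -0.87 ± 0.051). Of the pore proteins, NUP188, NUP85 and NUP205 fell (log2 fold changes -1.08 ± 0.074, -1.07 ± 0.12 and -0.94 ± 0.069), and NUP42 rose (log2 fold change 0.61 ± 0.16).

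Splicing factors gave 66 lower and 16 higher of 103, with a median of -0.424. PTBP1, a repressor of exons, was at 204, 191 and 208 CPM with palbociclib and 449 and 477 CPM with DMSO, and HNRNPD at 367, 357 and 369.7 CPM with palbociclib and 759 and 743 CPM with DMSO. Neither overlapped between groups, and the log2 fold changes were -1.25 ± 0.048 (SE, adjusted p = 5.34e-25) and -1.09 ± 0.037 (SE, adjusted p = 1.13e-26). RBMX and HNRNPA1 fell (log2 fold changes -1.26 ± 0.054 and -0.99 ± 0.032). HNRNPA1 has many processed pseudogenes, so its level is uncertain. The members that rose included MBNL2, a muscleblind protein (log2 fold change 0.77 ± 0.049), and the kinases of SR proteins CLK1 and CLK4 (log2 fold changes 0.64 ± 0.09 and 0.75 ± 0.12). SRSF11 and QKI rose (log2 fold changes 0.44 ± 0.043 and 0.32 ± 0.035).

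Chromatin remodelling subunits gave 23 lower and 6 higher of 52 (median -0.224), and histone-modifying enzymes 33 lower and 13 higher of 80 (median -0.072). SMARCA4, the ATPase of the BAF complex, was at 109, 101 and 96.2 CPM with palbociclib and 194 and 195 CPM with DMSO, a log2 fold change of -0.98 ± 0.066. ACTL6A and RUVBL2 fell (log2 fold changes -1.02 ± 0.095 and -0.92 ± 0.083), and CHD2 rose (log2 fold change 0.6 ± 0.067). NSD2, a methyltransferase for lysine on histone H3, fell (log2 fold change -1.02 ± 0.05), as did PRMT1, an arginine methyltransferase (log2 fold change -0.87 ± 0.082). HDAC9, a class II histone deacetylase, was at 65.8, 60.2 and 69.9 CPM with palbociclib and 16 and 22.9 CPM with DMSO and went the other way, with a log2 fold change of 1.72 ± 0.13 (SE, adjusted p = 9.98e-15). The demethylase genes KDM7A and KDM6B rose (log2 fold changes 1.22 ± 0.16 and 0.73 ± 0.12).

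**Figure D3:**
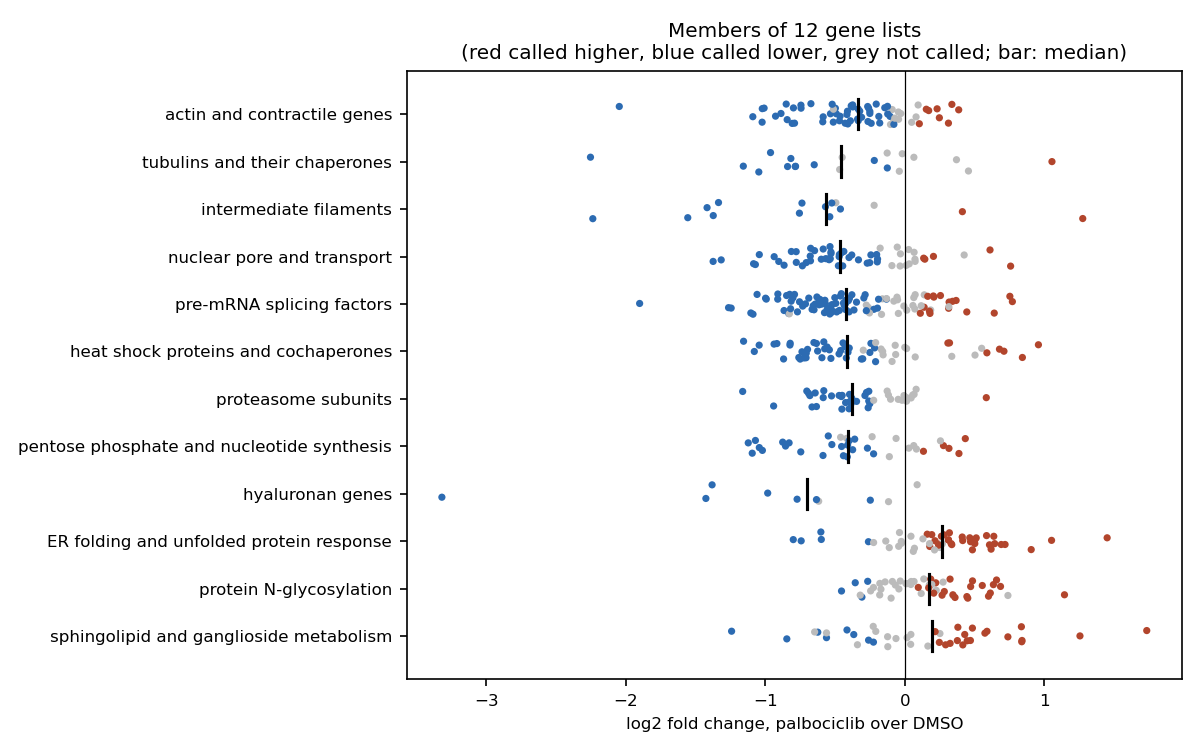
Log2 fold change of every tested member of 12 gene lists, 1 point per gene (red called higher, blue called lower, grey not called; points are spread vertically at random within a list). The black bar is the list's median, which lies below 0 for the 9 lists from actin to hyaluronan and above 0 for endoplasmic reticulum folding, N-glycosylation and sphingolipid metabolism.

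Heat shock proteins and their cochaperones, which act mostly in the cytosol, gave 37 lower and 7 higher of 58, with a median of -0.414. HSPA8, the constitutive HSP70, was at 1344, 1299 and 1295 CPM with palbociclib and 2622 and 2623 CPM with DMSO, and HSPB1, a small heat shock protein, at 283, 289 and 298 CPM with palbociclib and 580.3 and 609 CPM with DMSO. Each palbociclib library was at close to a 2-fold lower level, with log2 fold changes of -1.04 ± 0.026 (SE, adjusted p = 8.35e-32) and -1.08 ± 0.042 (SE, adjusted p = 6.36e-25). HSP90AA1 and HSP90AB1 fell (log2 fold changes -0.71 ± 0.025 and -0.7 ± 0.025). HSPA13 and BAG1 rose (log2 fold changes 0.96 ± 0.061 and 0.84 ± 0.14).

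Genes of folding and the unfolded protein response in the endoplasmic reticulum gave 32 higher and 5 lower of 52, with a median of 0.265. HERPUD1, part of the system that removes misfolded proteins, was at 135, 147 and 153 CPM with palbociclib and 64.8 and 71.3 CPM with DMSO. SEL1L, another part of it, was at 363, 382 and 374 CPM with palbociclib and 201 and 184 CPM with DMSO. Both were higher in every palbociclib library, with log2 fold changes of 1.05 ± 0.08 (SE, adjusted p = 6.83e-15) and 0.91 ± 0.051 (SE, adjusted p = 4.11e-19). The lectin chaperone calnexin (CANX) rose (log2 fold change 0.46 ± 0.027), and its soluble relative calreticulin (CALR) fell (log2 fold change -0.6 ± 0.031). The transcription factor gene XBP1 and its activator ERN1 rose (log2 fold changes 0.61 ± 0.061 and 0.64 ± 0.23). SDF2L1, CRELD2 and MANF, also induced by folding stress in many cells, fell (log2 fold changes -0.8 ± 0.2, -0.74 ± 0.13 and -0.6 ± 0.095). DESeq2 called 21 of the 52 higher, the lowest count over the alternatives.

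N-glycosylation genes gave 21 higher and 4 lower of 51, with a median of 0.174. The lower calls numbered 1 with library totals, and DESeq2 made none. B4GALT1, a galactosyltransferase of the Golgi, was at 422, 428 and 411 CPM with palbociclib and 267 and 257 CPM with DMSO. GFPT1, the first enzyme of the hexosamine pathway, was at 256, 286 and 274 CPM with palbociclib and 168 and 166 CPM with DMSO. Both stood higher in every palbociclib library (log2 fold changes 0.63 ± 0.046 and 0.66 ± 0.056). PGM3 and TUSC3 rose (log2 fold changes 0.61 ± 0.068 and 0.45 ± 0.065). RAB GTPases, which direct vesicles, gave 16 higher and 7 lower of 45 (median 0.21), with log2 fold changes of 0.92 ± 0.09 for RAB32, 0.5 ± 0.049 for RAB10, 0.45 ± 0.045 for RAB2A and 0.29 ± 0.033 for RAB1A.

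Proteasome subunits gave 29 lower and 1 higher of 43, with a median of -0.381. PSMC3, an ATPase of the regulatory particle, was at 85.8, 86.2 and 75.8 CPM with palbociclib and 176 and 180.4 CPM with DMSO, and PSMD2 at 506, 537 and 519 CPM with palbociclib and 781 and 783 CPM with DMSO. Their log2 fold changes were -1.16 ± 0.07 (SE, adjusted p = 4.19e-18) and -0.63 ± 0.035 (SE, adjusted p = 2.83e-19). PSMD3 and PSMA7 fell (log2 fold changes -0.67 ± 0.058 and -0.59 ± 0.059), and PSMA1 was the 1 member that rose (log2 fold change 0.58 ± 0.15). Mitochondrial ribosomal proteins gave 30 lower and 1 higher of 74 (median -0.256), with 15 to 30 lower over the alternatives. MRPL28, MRPL37, MRPL14 and MRPL39 fell (log2 fold changes -0.7 ± 0.11, -0.47 ± 0.074, -0.67 ± 0.11 and -0.75 ± 0.14).

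Enzymes of central metabolism also leaned downward. Pentose phosphate and nucleotide synthesis gave 21 lower and 5 higher of 35, with a median of -0.411. PAICS, of purine synthesis, was at 225, 224 and 219 CPM with palbociclib and 390.3 and 401 CPM with DMSO, and CTPS1, which makes CTP, at 59.2, 59.4 and 61.3 CPM with palbociclib and 127 and 121 CPM with DMSO. Both were lower with palbociclib in every library, with log2 fold changes of -0.88 ± 0.046 (SE, adjusted p = 4.9e-20) and -1.09 ± 0.08 (SE, adjusted p = 1.78e-15). PRPS1 and IMPDH2 fell (log2 fold changes -1.07 ± 0.078 and -0.75 ± 0.056), and TALDO1, of the pentose phosphate pathway, rose (log2 fold change 0.43 ± 0.049). Glycolysis gave 14 lower and 6 higher of 28 (median -0.303), with log2 fold changes of -0.69 ± 0.032 for TPI1, -0.46 ± 0.023 for ENO1, -0.38 ± 0.026 for LDHA and -0.31 ± 0.022 for PKM. The glucose carrier SLC2A3 was at 91.7, 93.1 and 91.5 CPM with palbociclib and 35.8 and 34.8 CPM with DMSO and rose (log2 fold change 1.33 ± 0.099).

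The citric acid cycle list gave 16 lower and 4 higher of 33 (median -0.245). Its isocitrate dehydrogenases IDH1 and IDH2 went in opposite directions. The mitochondrial IDH2 was at 53.3, 52.5 and 46.5 CPM with palbociclib and 103 and 111 CPM with DMSO. The cytosolic IDH1 was at 245, 256 and 259 CPM with palbociclib and 136 and 135 CPM with DMSO. IDH2 was lower and IDH1 higher in every palbociclib library, with log2 fold changes of -1.13 ± 0.088 (SE, adjusted p = 1.48e-14) and 0.86 ± 0.058 (SE, adjusted p = 1.66e-16). Citrate synthase (CS) fell (log2 fold change -0.75 ± 0.065) and malic enzyme 1 (ME1) rose (log2 fold change 0.55 ± 0.065).

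Sphingolipid and ganglioside genes gave 19 higher and 8 lower of 40, with a median of 0.19 that was 0.009 without DMSO replicate 1. SGPP2, a phosphatase of sphingosine 1-phosphate, was at 69.6, 74.7 and 66 CPM with palbociclib and 19.2 and 21.6 CPM with DMSO. PSAP, the precursor of the lysosomal saposins, was at 1009.5, 1003 and 988 CPM with palbociclib and 546 and 535 CPM with DMSO. The groups were apart for both, with log2 fold changes of 1.73 ± 0.12 (SE, adjusted p = 8.41e-16) and 0.84 ± 0.034 (SE, adjusted p = 3.43e-24). ASAH1, acid ceramidase, and HEXA rose (log2 fold changes 0.84 ± 0.09 and 0.83 ± 0.15), and SMPD4, a sphingomyelinase, and ST3GAL5, which makes ganglioside GM3, fell (log2 fold changes -0.85 ± 0.07 and -1.24 ± 0.22). DESeq2 called 12 of the 40 higher, and 5 lower, the lowest counts over the alternatives. Peroxisome genes gave 11 higher and 6 lower of 35, and 3 to 14 higher and 1 to 5 lower over the alternatives, with CAT and PEX26 higher (log2 fold changes 0.49 ± 0.096 and 0.43 ± 0.1) and ABCD3 lower (log2 fold change -0.36 ± 0.084).

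Matrix genes moved in both directions, but the called hyaluronan genes were all lower. Hyaluronan genes gave 7 lower of 10, with a median of -0.704. HAS2, the second synthase, was at 10, 9.58 and 5.92 CPM with palbociclib and 22.9 and 20.6 CPM with DMSO and fell (log2 fold change -1.43 ± 0.21). CEMIP and HYAL2, which take part in hyaluronan breakdown, fell (log2 fold changes -1.38 ± 0.45 and -0.98 ± 0.2). CEMIP2, a transmembrane relative of CEMIP, fell (log2 fold change -0.77 ± 0.066), as did CD44, the main hyaluronan receptor (log2 fold change -0.25 ± 0.033). HMMR, another hyaluronan receptor and a cell-cycle gene, fell (log2 fold change -0.63 ± 0.09). The other 3 tested members did not pass.

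Matrix glycoproteins and proteoglycans gave 18 higher and 19 lower of 50, with a median of -0.017. VCAN, the large proteoglycan versican, was at 423, 414 and 395 CPM with palbociclib and 816 and 828 CPM with DMSO, and TNC, tenascin C, at 386, 389 and 388 CPM with palbociclib and 627 and 662 CPM with DMSO. Both fell, with log2 fold changes of -1.05 ± 0.037 (SE, adjusted p = 2.07e-26) and -0.78 ± 0.038 (SE, adjusted p = 4.91e-21). SPP1, osteopontin, was at 617, 623 and 643 CPM with palbociclib and 388 and 372 CPM with DMSO and rose, with a log2 fold change of 0.68 ± 0.04 (SE, adjusted p = 1.44e-18). The laminin chain LAMB2 and the basement membrane protein NID2 rose (log2 fold changes 0.83 ± 0.064 and 0.61 ± 0.051).

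Collagens gave 4 higher and 1 lower of 18 (median 0.039). COL7A1, of anchoring fibrils, rose (log2 fold change 0.43 ± 0.033), as did COL12A1 (log2 fold change 0.31 ± 0.074) and COL6A2 (log2 fold change 0.18 ± 0.053), whereas COL1A1 fell (log2 fold change -0.5 ± 0.067). Without DMSO replicate 1, COL12A1 had an adjusted p of 0.0866, and COL6A2 had one of 0.0549 in DESeq2. The enzymes that modify collagen gave 9 higher and 6 lower of 24 (median 0.059). PLOD2, a lysyl hydroxylase, was at 1533, 1539.8 and 1541 CPM with palbociclib and 775 and 798 CPM with DMSO. LOXL2, which cross-links collagen, was at 401, 404 and 381 CPM with palbociclib and 239.8 and 247 CPM with DMSO. Both were higher in every palbociclib library, with log2 fold changes of 0.92 ± 0.03 (SE, adjusted p = 1.33e-27) and 0.65 ± 0.047 (SE, adjusted p = 1.55e-15). LOX and FKBP10 rose (log2 fold changes 1.16 ± 0.23 and 0.46 ± 0.05), and the collagen chaperone SERPINH1 fell (log2 fold change -0.35 ± 0.04). The sum of 9 fibroblast genes, which includes COL1A1, was 175 to 220.4 CPM with palbociclib and 264 to 293 CPM with DMSO, and its part in these results was not tested.

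Matrix proteases and their inhibitors gave 14 higher and 11 lower of 34 (median 0.128). PLAU, a plasminogen activator, was at 65.1, 74.4 and 71 CPM with palbociclib and 119 and 119 CPM with DMSO and fell (log2 fold change -0.81 ± 0.079). The sheddases ADAM9 and ADAM17 rose (log2 fold changes 0.67 ± 0.045 and 0.9 ± 0.08), ADAM19 fell (log2 fold change -0.97 ± 0.068), and TIMP2 rose (log2 fold change 0.63 ± 0.052). Integrins, the matrix receptors, gave 5 higher and 3 lower of 15 (median 0.114). ITGAV and ITGB1 rose (log2 fold changes 0.52 ± 0.038 and 0.23 ± 0.026), and 2 partners of ITGAV, ITGB3 and ITGB6, fell (log2 fold changes -0.44 ± 0.05 and -1.86 ± 0.42).

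Cell-cell contacts were split. Tight junction genes gave 6 higher and 2 lower of 16 (median 0.224). Against the fall of CLDN2, CLDN1 was at 411, 422 and 422 CPM with palbociclib and 228 and 235 CPM with DMSO and rose, with a log2 fold change of 0.81 ± 0.046 (SE, adjusted p = 7.93e-19). CLDN15 and PARD3 rose (log2 fold changes 1 ± 0.22 and 0.27 ± 0.064). Cadherins, catenins and desmosomal genes gave 9 lower and 3 higher of 20 (median -0.163). NECTIN1 and CTNNB1, beta-catenin, fell (log2 fold changes -1.05 ± 0.1 and -0.36 ± 0.034), and PERP, a p53 target of desmosomes, rose (log2 fold change 0.39 ± 0.071). Of 5 tested protocadherins, PCDHGC3, PCDH19 and PCDH7 fell (log2 fold changes -0.9 ± 0.098, -0.75 ± 0.11 and -0.41 ± 0.077). PCDHGC3 shares exons with the rest of its cluster, so its count is uncertain. Tetraspanins gave 5 higher and 6 lower of 15, with TSPAN15, a partner of ADAM10, down (log2 fold change -1.62 ± 0.15).

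**Figure D4:**
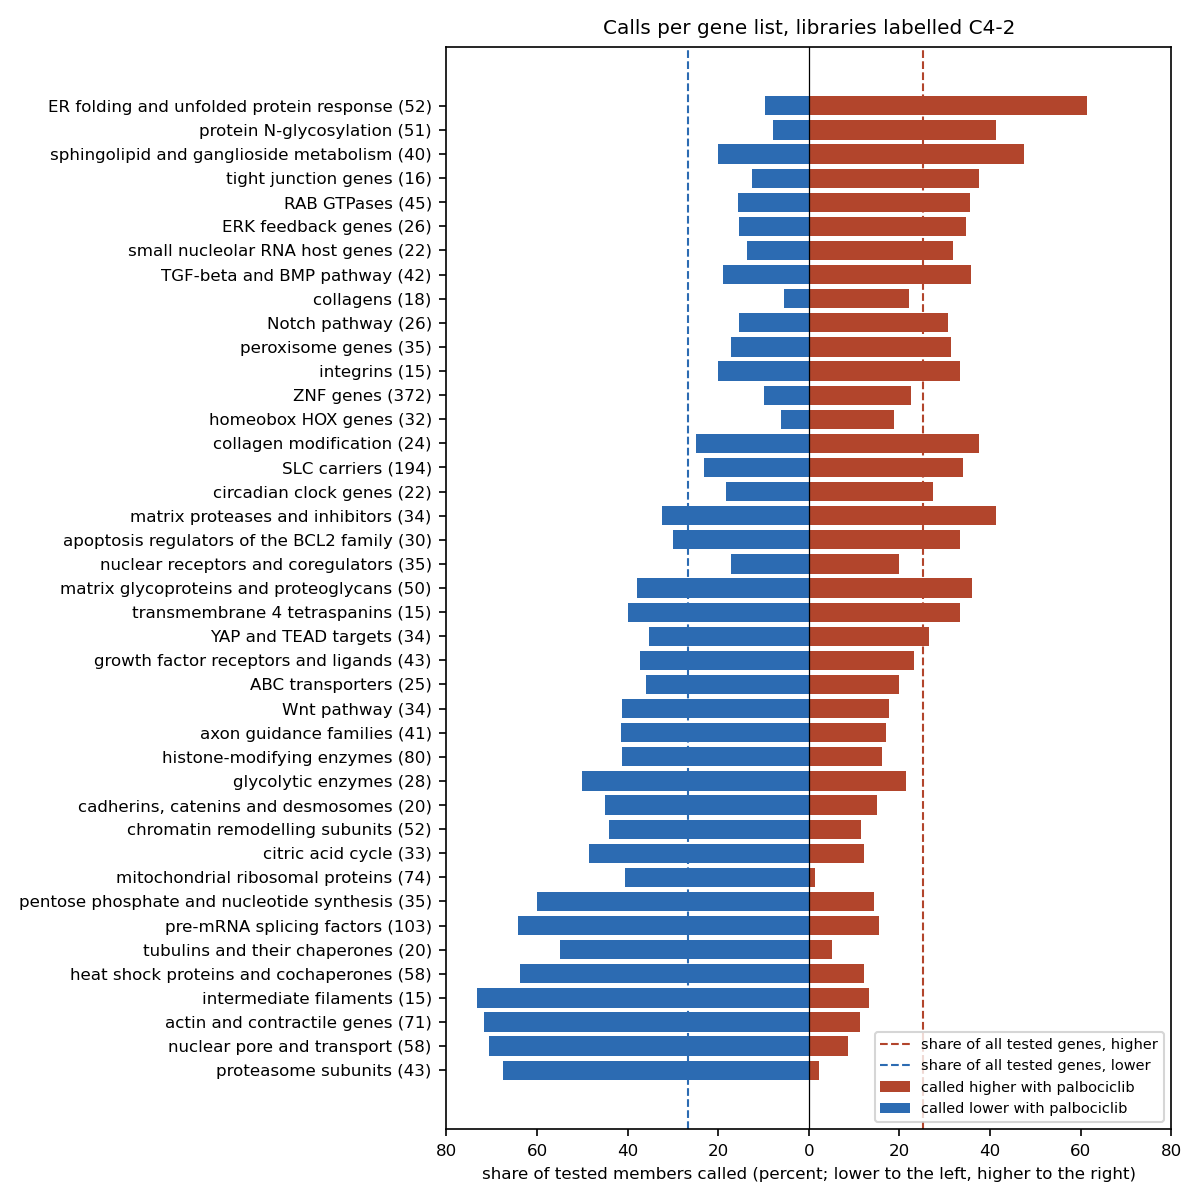
Share of tested members called higher (red, to the right) and lower (blue, to the left) for each list with at least 15 tested members, given in parentheses. Dashed lines are the shares over all tested genes, 25.2% higher and 26.6% lower. Proteasome, nuclear pore, actin and intermediate filament lists reach farthest to the left, and endoplasmic reticulum folding farthest to the right.

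Several of these counts were over 1.5 times smaller under an alternative. Over the alternatives the lowest count of genes called higher was 5 for actin, 10 for splicing, 3 for chromatin remodelling, 8 for histone-modifying, 3 for nuclear pore, 4 for small nucleolar RNA host, 2 for integrin, 3 for tight junction, 2 for tetraspanin, 2 for collagen and 1 for intermediate filament genes. The lowest count of genes called lower was 5 for cadherins, catenins and desmosomes and 1 each for tight junction and small nucleolar RNA host genes. In the signalling, clock, apoptosis and HOX lists, the lowest counts were 9 higher for TGF-beta and BMP, 8 lower for Wnt, 4 higher for Notch, 7 lower for YAP and TEAD, 3 higher for clock and 5 lower for apoptosis genes, 4 higher for axon guidance, 2 lower for ERK feedback and 1 lower for HOX genes. The medians of 34 of the 43 lists kept their sign under each alternative. The other 9 were collagens, collagen modification, matrix glycoproteins, matrix proteases, tetraspanins, protocadherins, YAP and TEAD genes, nuclear receptors and apoptosis genes, whose median had either sign.

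In the TGF-beta and BMP pathway, 15 genes were higher and 8 lower of 42 (median -0.09). ID1, a target of BMP signals, was at 15.9, 15.3 and 17.8 CPM with palbociclib and 49.6 and 51.1 CPM with DMSO. ID3, a target of the same kind, was at 9.69, 15.3 and 14.5 CPM with palbociclib and 33.5 and 38.8 CPM with DMSO. Both fell, with log2 fold changes of -1.66 ± 0.13 (SE, adjusted p = 3.24e-14) and -1.49 ± 0.16 (SE, adjusted p = 2.34e-10), as did the ligand BMP4. INHBA, which makes activin A, was at 301, 284 and 266 CPM with palbociclib and 133 and 137 CPM with DMSO and rose, with a log2 fold change of 1.02 ± 0.06 (SE, adjusted p = 1.6e-18), whereas INHBB fell (log2 fold change -0.77 ± 0.091). The receptor TGFBR1 and the target gene PMEPA1 rose (log2 fold changes 0.5 ± 0.079 and 0.44 ± 0.057).

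Wnt genes gave 14 lower and 6 higher of 34 (median -0.11). The ligand gene WNT7B was at 30.8, 35.3 and 33.7 CPM with palbociclib and 92.8 and 100.5 CPM with DMSO. FZD8, a receptor for Wnt ligands, was at 62.6, 63.6 and 69.9 CPM with palbociclib and 20.1 and 25.9 CPM with DMSO. WNT7B fell, with a log2 fold change of -1.58 ± 0.099 (SE, adjusted p = 1e-17) and FZD8 rose, with a log2 fold change of 1.48 ± 0.12 (SE, adjusted p = 1.38e-13). AXIN2 and TCF7, which Wnt signals induce in many cells, fell (log2 fold changes -1.51 ± 0.38 and -0.93 ± 0.14), and GSK3B rose (log2 fold change 0.56 ± 0.072). Notch genes gave 8 higher and 4 lower of 26 (median 0.04), with NOTCH2 higher (log2 fold change 0.37 ± 0.035) and NOTCH1, its ligand JAG1 and the glycosyltransferase LFNG lower (log2 fold changes -0.57 ± 0.098, -0.59 ± 0.064 and -0.69 ± 0.078).

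Growth factors and their receptors gave 16 lower and 10 higher of 43 (median -0.196), and 8 to 16 lower over the alternatives. VEGFA, which drives blood vessel growth and is also a gene of the amino-acid stress list, was at 905, 849 and 833 CPM with palbociclib and 445 and 482 CPM with DMSO and rose (log2 fold change 0.85 ± 0.039). EGFR, IGF2R and IGFBP3 rose (log2 fold changes 0.42 ± 0.039, 0.56 ± 0.034 and 0.39 ± 0.032), and the receptor genes FGFR3 and NTRK3 fell (log2 fold changes -2.71 ± 0.5 and -1.68 ± 0.16). The ERK feedback list, which also holds target genes of the pathway such as CCND1, EPHA2 and FOSL1, gave 9 higher and 4 lower of 26 (median 0.189). CCND1, cyclin D1, the partner of the drug's targets, was at 966, 954 and 959 CPM with palbociclib and 428 and 428 CPM with DMSO and rose, with a log2 fold change of 1.12 ± 0.035 (SE, adjusted p = 5.89e-28). ERRFI1, an inhibitor of EGFR, rose (log2 fold change 0.8 ± 0.046), and EPHA2 and FOSL1 fell (log2 fold changes -0.78 ± 0.058 and -0.68 ± 0.072).

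YAP and TEAD genes gave 9 higher and 12 lower of 34 (median -0.015). WWTR1, which encodes the coactivator TAZ, was at 107, 93.1 and 103 CPM with palbociclib and 190.3 and 216 CPM with DMSO and fell, with a log2 fold change of -1.05 ± 0.068 (SE, adjusted p = 4.83e-17). NF2, an upstream inhibitor, AXL and TNFRSF12A fell (log2 fold changes -0.7 ± 0.07, -0.44 ± 0.041 and -0.5 ± 0.067), and the targets CCN2 and GADD45A rose (log2 fold changes 0.38 ± 0.079 and 0.41 ± 0.063). Axon guidance families gave 17 lower and 7 higher of 41 (median -0.153), with the semaphorins SEMA4B and SEMA7A and the coreceptor NRP1 lower (log2 fold changes -0.82 ± 0.05, -0.77 ± 0.085 and -0.72 ± 0.062).

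Nuclear receptors and coregulators gave 7 higher (20%) and 6 lower (17.1%) of 35 (median -0.026), beside 25.2% and 26.6% of all tested genes. NR4A2, an orphan receptor of the immediate early kind, was at 116, 109 and 93.2 CPM with palbociclib and 27.2 and 30.8 CPM with DMSO, and PPARA, a receptor for fatty acids, at 112, 98.5 and 107 CPM with palbociclib and 52.2 and 46.8 CPM with DMSO. Both were higher in every palbociclib library, with log2 fold changes of 1.82 ± 0.11 (SE, adjusted p = 4.71e-18) and 1.05 ± 0.091 (SE, adjusted p = 4.17e-13). NR3C1, the glucocorticoid receptor, rose (log2 fold change 0.67 ± 0.062), and FKBP5, a gene that glucocorticoids induce, was at 26.1 ± 5.33 against 57.1 ± 4.58 CPM and fell (log2 fold change -1.16 ± 0.13). Clock genes gave 6 higher (27.3%) and 4 lower (18.2%) of 22. NFIL3, BHLHE40 and NR1D2 were higher (log2 fold changes 0.58 ± 0.12, 0.52 ± 0.053 and 0.51 ± 0.099), and TIMELESS, also a replication gene, lower (log2 fold change -1.42 ± 0.11). HOX genes gave 6 higher (18.8%) and 2 lower (6.25%) of 32, both below the shares of all tested genes. HOXB9, HOXA7 and HOXC6 were higher (log2 fold changes 1.08 ± 0.11, 1.01 ± 0.21 and 0.53 ± 0.087). HOXA3 was lower (log2 fold change -0.79 ± 0.18), and without DMSO replicate 2 it had a log2 fold change of -0.44 and an adjusted p of 0.095.

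Apoptosis regulators gave 10 higher (33.3%) and 9 lower (30%) of 30 (median -0.04), beside 25.2% and 26.6% of all tested genes. The inhibitors CFLAR, BIRC2 and XIAP rose (log2 fold changes 0.66 ± 0.066, 0.56 ± 0.072 and 0.53 ± 0.077). So did the death-promoting BBC3 and PMAIP1 (log2 fold changes 1.22 ± 0.48 and 0.5 ± 0.085), whereas BAX and BAK1 fell (log2 fold changes -0.6 ± 0.13 and -0.35 ± 0.11).

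Carriers of the SLC families gave 66 higher and 45 lower of 194 (median 0.181), and DESeq2 called 39 and 19 of them. Those with the smallest adjusted p, SLC7A11, SLC7A5, SLC3A2 and SLC38A1, make amino acid carriers, and they rose (log2 fold changes 2.57 ± 0.041, 1.4 ± 0.035, 1.34 ± 0.045 and 1.01 ± 0.041). Of carriers for other substrates, SLCO2B1, an uptake carrier of organic anions, rose (log2 fold change 1.34 ± 0.091), and SLC29A1, the main carrier of nucleosides, was at 39.8, 36.8 and 38.8 CPM with palbociclib and 132 and 146 CPM with DMSO and fell, with a log2 fold change of -1.89 ± 0.087 (SE, adjusted p = 3.99e-22). ABC transporters gave 5 higher and 9 lower of 25, and 4 to 9 lower over the alternatives. The cholesterol exporter ABCA1 and ABCC3 were higher (log2 fold changes 0.82 ± 0.061 and 0.66 ± 0.056). ABCA12 and ABCA2 were lower (log2 fold changes -1.65 ± 0.32 and -0.4 ± 0.083).

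ZNF genes, which encode zinc finger proteins, gave 84 higher (22.6%) and 37 lower (9.95%) of 372, with a median of 0.094. Both shares were below those of all tested genes, 25.2% and 26.6%. DESeq2 called 31 higher and 8 lower. ZNF83 and ZNF655 rose (log2 fold changes 1.08 ± 0.12 and 0.66 ± 0.083), and ZNF618 fell (log2 fold change -1.08 ± 0.12). ZNF367, a cell-cycle gene whose promoter is printed above, was at 5.54, 9.58 and 11 CPM with palbociclib and 52.7 and 54.1 CPM with DMSO and fell, with a log2 fold change of -2.64 ± 0.16 (SE, adjusted p = 5.55e-18).

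The share of genes called higher differed with length. In 5 equal groups by exonic length, the share called higher was 18.4%, 21.8%, 25.1%, 29.5% and 31.3% from the shortest to the longest, and the median log2 fold change went from -0.079 to 0.055. The share called lower went from 28.6% to 24.2%. Calls of 2-fold or more upward ran mostly the other way, at 7.27%, 5.13%, 4.46%, 3.91% and 4.75%. With mean level both shares differed, from 19.3% higher and 10.8% lower in the lowest of 5 groups to 36.6% and 37.6% in the highest. The median log2 fold change went from 0.186 to -0.004, and calls of 2-fold or more upward from 14.4% to 2.47%. By the number of exons, the group with the fewest had 26.5% higher and 18.3% lower. Chromosome 19 stood at 13.2% higher and 34.8% lower of 748 genes, whereas chromosome 18 had 32.6% higher and 22.3% lower of 175. Promoter GC content gave medians from -0.041 to 0.003 over its 5 groups.

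Promoters were searched for short motifs from 250 bases before to 50 after the start, on both strands, in 9023 of 10549 protein-coding genes outside chromosome 8. They were available for 338 of 412 genes higher and 412 of 507 genes lower by 2-fold or more. The CHR element (TTTGAA), a site of cell-cycle genes, was in 9.51% of all, 22.3% of the lower and 12.4% of the higher promoters. Without the set-aside programmes it was in 12.4% of the 259 lower promoters. The E2F-type site TTCCCGC was in 10.7% of all, 18.7% of the lower and 6.51% of the higher ones and, without those programmes, in 14.7% of the lower ones. The CCAAT box (CCAAT) was in 36.8%, 47.3% and 36.7%, and in 38.6% of the lower ones without those programmes. The ETS site (CCGGAAG) was in 20.5% of all, 13.1% of the lower and 12.7% of the higher promoters. The AP-1 site (TGACTCA) was in 2.83%, 1.70% and 5.03%, the TATA box (TATAAA) in 5.00%, 4.37% and 8.88%, and the TEAD site (GGAATG) in 10.8%, 12.9% and 13.9%. The GC box (GGGCGG) was in 71.6%, 69.4% and 62.7%, and the E-box (CACGTG) in 10.2%, 9.47% and 8.58%. The CRE site (TGACGTC) was in 5.82%, 6.80% and 5.92%, the NRF1-type site (GCATGCG) in 6.64%, 6.80% and 4.14%, and the second E2F form (TTGGCGC) in 5.29%, 9.47% and 4.14%, with 5.41% of the lower ones without those programmes. These shares describe letters in a window, and the motifs may overlap.

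The response was then set beside that of the libraries labelled DU145, 3 with palbociclib and 3 with DMSO, by an interaction of treatment and line. The 2 tables hold raw counts made in different ways, so the interaction compares the change inside each table. Of 18139 genes, 6065 (33.4%) passed, 2728 with the higher change in C4-2 (15%) and 3337 with the lower (18.4%). In DU145 28.8% of all tested genes were higher and 29.2% lower. Of the 510 long non-coding genes tested in C4-2, 396 were also tested in DU145. There 103 were higher (26%) and 102 lower (25.8%), with a median of -0.02. Of the 10948 coding genes tested in C4-2, 10252 were also tested in DU145, with 32.5% higher and 31.2% lower. Long non-coding genes tested in DU145 only are not in these counts. The DU145 libraries were deeper, at 16108999 to 16674393 counts each. In the interaction, 163 of the 510 had the higher change in C4-2 and 30 the lower.

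Single genes of the lists above differed between the tables as well. HAS3, with a log2 fold change of -3.32 in C4-2, had one of 0.23 (adjusted p = 0.497) in DU145, and TM4SF1, with -1.6 in C4-2, had one of 1.4 (adjusted p = 7.76e-12). The log2 fold changes of ACTB and HSPA8 in DU145 were 0.27 (adjusted p = 0.00025) and 0.91 (adjusted p = 1.65e-09), so that both rose there. IDH1, which rose in C4-2, had a log2 fold change of -1.49 (adjusted p = 1.04e-10) in DU145, and NDRG1 had one of -0.013 (adjusted p = 0.881). All 6 of these genes passed the interaction test. IL6 rose in both tables, with a log2 fold change of 2.39 (adjusted p = 5.25e-06) in DU145, and its interaction did not pass (adjusted p = 0.328). PEG10 fell in both, with a log2 fold change of -1.4 (adjusted p = 2.8e-11) in DU145, and by more in C4-2 (interaction adjusted p = 1.12e-07).

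**Figure D5:**
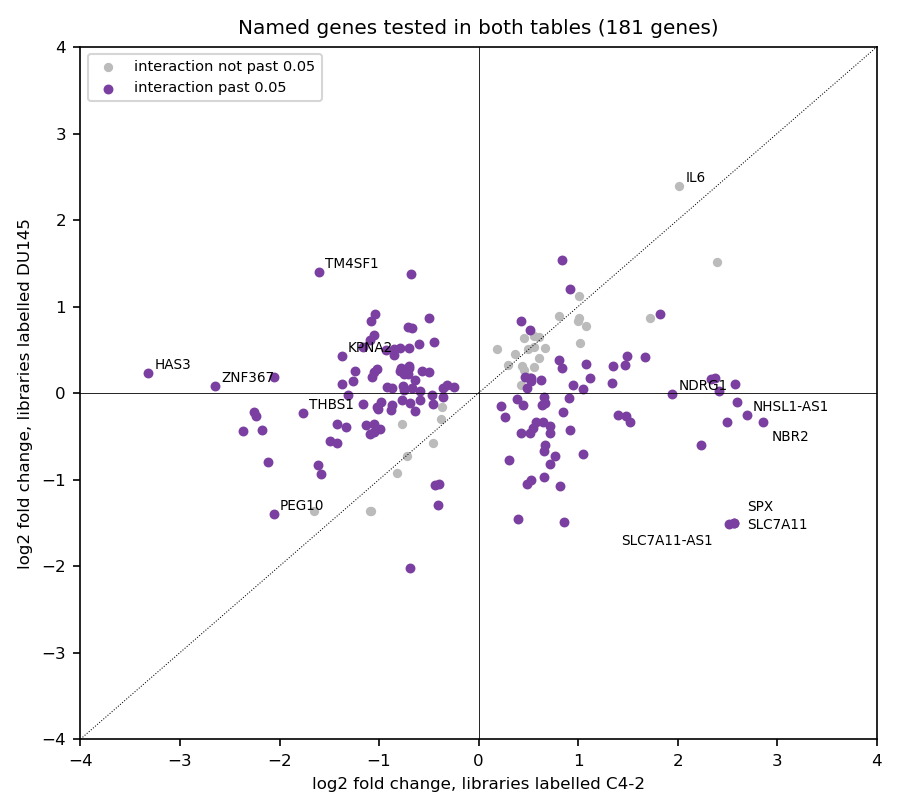
Log2 fold change with palbociclib in the libraries labelled C4-2 (horizontal) and DU145 (vertical) for the 181 named genes that were tested in both tables. Purple points passed the interaction test at an adjusted p of 0.05 (148 genes) and grey points did not (33), and the dotted line marks equal change. SLC7A11, SPX and SLC7A11-AS1 lie at the lower right, higher in C4-2 and lower in DU145, and TM4SF1 at the upper left.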

How the data were processed

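The authors deposited raw read counts per gene, a table per line. The C4-2 counts came, per the file headers, from featureCounts 2.0.1 with the Ensembl 107 annotation and no strand setting, although per the labels the kit was directional. The submitters' processing notes name hg38. For the DU145 counts the counting tool is not given in the sources used here. Gene length, class and position were joined from the DU145 table by Ensembl identifier (56747 of 61860) and symbols from a reference table (61757).

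Counts were tested with edgeR 4.0.16 (R 4.3.3): filterByExpr, TMM scaling, the quasi-likelihood test and Benjamini-Hochberg adjustment at 0.05 over all tested genes. SE is the fitted coefficient divided by the root of its F value. CPM used library totals. The planned 3 against 3 became 3 against 2, since 1 column held only 0. Alternatives were DESeq2 1.42.0, other scalings, a stricter filter (mean of at least 5 CPM) or none, a replicate block, and leaving out each library. The code was tested on simulated data.

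Members and the 43 gene lists were chosen with earlier results of these data known. Named genes were the 12 largest called rises and falls at 5 CPM or more and the 8 largest at 100 CPM or more, with no overlap between groups and outside the set-aside lists, up to 4 called members per list by adjusted p, and among these the 5 largest interactions each way. Other list members were given with their values. Promoters (RefSeq, GRCh38.p14) were matched by symbol. The printed ones follow size of change among named genes outside chromosome 8, except that NBR2, whose start lies beside a cell-cycle gene, was passed over. The limits to coding genes and to the first listed start were set after coverage was seen. No deposited sample column was unmapped. Some genes that the rule for named genes or a marker list would give are not reported here.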

Additional observations from a re-analysis of the deposited data

Results flagged for a closer look

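The change with palbociclib differed between the libraries labelled C4-2 and DU145 by the test of the interaction of treatment and line, and the 10 differences given are the 5 largest in each direction among named genes that passed it at an adjusted p of 0.05. CLDN2, KRT19 and VCAN had large differences that did not pass. As C4-2 minus DU145 on the log2 scale, the differences were 4.05 for SPX, 4.04 for SLC7A11, 4.0 for SLC7A11-AS1, 3.19 for NBR2 and 2.93 for NHSL1-AS1. In the other direction they were -3.59 for HAS3, -3.03 for TM4SF1, -2.96 for PCDHGC3, -2.77 for ZNF367 and -2.69 for CCL2. PCDHGC3 and CCL2 were below the low-count filter of DU145 alone, so their differences rest on few DU145 counts. SLC7A11 and SLC7A11-AS1 overlap and were counted without strand in the libraries labelled C4-2, so they are not separate results.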

How the results depend on the processing

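DESeq2 called 3793 genes (1800 higher, 1993 lower) and 116 long non-coding genes higher and 6 lower, against 6184, 3011, 3173, 225 and 19 in edgeR. The long non-coding genes called lower were 32 with no low-count filter, 12 with the stricter filter and 11 without DMSO replicate 1. The causes were not tested. The other 85 counts and values that answer a comparison stayed within 1.5 times or kept their call. Leaving out each C4-2 library in turn gave 5035 to 5751 calls, 2392 to 2819 higher and 2643 to 2932 lower, 574 to 590 higher and 515 to 559 lower at 2-fold or more, and 171 to 205 long non-coding genes higher and 11 to 19 lower. Leaving out each library of either table gave 4743 to 6248 interactions. Of 200 named genes, 0 reversed and 3 lost their call (COL12A1, COL6A2 and HOXA3) under 1 alternative each. Other list members given with values, such as BBC3, CEMIP, ERN1 and AXIN2 with their large SE, were not part of this check. With no filter the median log2 fold change of all genes was 0.102. A replicate block gave 2779 higher and 2919 lower, but the numbers do not show a pairing: deviations of same-numbered libraries correlated at 0.0067 and 0.0292, and there are only 2 pairs. Depth limits what can be seen at 1 to 2 CPM, with under 10 counts per library.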
